A study of Mus musculus with 80 samples.

Results

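The 5′ splice site of Ptbp1 exon 7 was edited with a single guide, sgRNA6, and the relaxed-PAM Cas9 variant SpG fused to either of 2 adenine deaminases, ABE8e or ABEmax. The samples were chosen by their labels alone: 3 samples of sgRNA6 with SpG-ABE8e, 3 of sgRNA6 with SpG-ABEmax and 2 controls that received sgRNA6 and no base editor, which makes 8 of the 80 samples of the series. All were cultures of Hepa1-6, a mouse hepatoma cell line, transfected by lipofection with 400 ng of DNA in all, and the replicates were described as independent experiments. Genomic DNA around the guide was amplified and sequenced, and each sample is a list of alleles with their read counts. The control replicates carry the numbers 1 and 3. The labels name no sorting for transfected cells, so each percentage is taken as an average over the whole culture.

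PTBP1 is a polypyrimidine tract binding protein that represses the splicing of many neuronal exons outside the nervous system, and its loss is used as a test of whether glia can take on neuronal features. An adenine base editor joins a Cas9 nickase to an evolved TadA deaminase, which turns adenine into inosine on the strand displaced by the guide. Inosine is read as guanine, so an edit is seen as A-to-G on the protospacer strand and as T-to-C on the gene strand when that strand is the opposite one. Almost every intron opens with GT, and converting the T of that pair to C is a way to disable a 5′ splice site without cutting the gene. Any other adenine inside the editing window is a bystander. ABEmax carries an earlier evolved TadA and ABE8e a later one selected for faster deamination.

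The protospacer lay on the minus strand at chr10:79695775-79695794 of GRCm39, and Ptbp1 (ENSMUSG00000006498.18) is on the plus strand. Exon 7 of transcript ENSMUST00000172282.8 spans chr10:79695615-79695789, a length of 175 bases, and is followed by an intron of 161 bases. This exon end is used by 19 of the 30 annotated Ptbp1 transcripts, and 8 of those are protein-coding. The first 5 bases of the protospacer are intronic and the other 15 are exonic. Position 1 is the base farthest from the PAM, and positions 21 to 23 are the PAM, TGG. Negative positions count away from position 1 on the side opposite the PAM. Adenines are found at positions 4, 7, 8, 9 and 20, which are in capitals in the unedited sequence, shown because every result below refers to them:
protospacer and PAM: cttAccAAAggctgctgccAtgg
On the gene strand the same place reads as follows, with the GT that opens the intron in capitals:
gene strand: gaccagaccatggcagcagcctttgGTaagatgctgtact
Position 4 (chr10:79695791) is opposite the T of that GT and is the target. Positions 7, 8 and 9 (chr10:79695788, chr10:79695787 and chr10:79695786) lie in codon 296 of exon 7, TTT for phenylalanine. A7G gives TTC and is synonymous. A8G gives F296S and A9G gives F296L, also when they occur with A7G, and A8G with A9G gives F296P. Position 20 (chr10:79695775) is in the ATG of codon 292.

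The edited alleles that separated the deaminases were the following, each written over the protospacer and PAM with edited bases in capitals:
target alone: cttGccaaaggctgctgccatgg
position 7 alone: cttaccGaaggctgctgccatgg
positions 4 and 7: cttGccGaaggctgctgccatgg
positions 4, 7 and 8: cttGccGGaggctgctgccatgg
positions 4, 7 and 9: cttGccGaGggctgctgccatgg
positions 4, 7, 8 and 9: cttGccGGGggctgctgccatgg

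Read counts ran from 2738 to 3048 in the SpG-ABE8e samples, from 3773 to 4510 in the SpG-ABEmax samples, and were 2048 and 4089 in the controls. At these depths a count of 0 allows a share of up to 0.0665% to 0.146% of reads, taking 3 reads as the upper limit. These limits and the 95% Wilson intervals below cover counting error only, since PCR copies are not independent molecules. Comparisons of the 2 deaminases used the exact two-sided permutation test over samples, for which 3 against 3 cannot give a p below 0.1, so no difference could pass a threshold of 0.05. Each difference is therefore given with the values of all samples, and the statement that groups did not overlap describes those samples.

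Editing of the target adenine was 3.83 times higher with ABE8e than with ABEmax. A4G was present in 77.4%, 75.7% and 77.5% of reads with SpG-ABE8e. It was present in 22.9%, 18.8% and 18.5% of reads with SpG-ABEmax. The controls held A4G in 0.0488% (95% interval 0.00862% to 0.276%) and 0.147% (0.0673% to 0.320%) of reads. The means were 76.9% ± 1.03 (SD, n = 3) and 20.1% ± 2.44 (SD, n = 3), a difference of 56.8 percentage points (exact permutation p = 0.1, adjusted p = 0.133 over 12 values). The interval of the lowest SpG-ABE8e sample started at 74.0% and that of the highest SpG-ABEmax sample ended at 24.2%, so counting error was small beside the difference.

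Position 7, the synonymous bystander, was edited nearly as often as the target under both deaminases. A7G was found in 71.6%, 69.1% and 71.9% of reads with SpG-ABE8e. With SpG-ABEmax it was found in 17.6%, 16.1% and 15.9%. The means of 70.9% ± 1.56 and 16.6% ± 0.892 (SD, n = 3 each) differed 4.28 times (exact permutation p = 0.1, adjusted p = 0.133), against 0.0488% and 0.0489% in the controls.

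The amino acid-changing bystanders were far rarer and differed less between deaminases. A8G was seen in 2.79%, 3.29% and 2.20% of reads with SpG-ABE8e and in 1.96%, 1.25% and 1.24% with SpG-ABEmax, a ratio of means of 1.86. A9G was seen in 1.15%, 1.46% and 1.30% against 0.898%, 1.06% and 0.665%, a ratio of 1.49. At both positions the lowest SpG-ABE8e sample was above the highest SpG-ABEmax sample (exact permutation p = 0.1, adjusted p = 0.133 each), and the controls stayed at 0.0488% or less. Position 20 was at the level of the controls: A20G reached at most 0.0656% in any SpG sample, against 0.0488% and 0.0489% in the controls, and the deaminase groups overlapped (exact permutation p = 0.4, adjusted p = 0.48).

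Thus 4 of the 5 protospacer adenines had A-to-G shares that did not overlap between the deaminases, all higher with ABE8e. Of the 116 different substitutions seen anywhere in the 40-base window in any of the 8 samples, 14 did not overlap (12.1%), 10 of them higher with ABE8e (8.62%) and 4 lower (3.45%). This count depends on single reads and on the samples used: it was 5 without alleles of 1 read and 19 to 25 with 1 sample left out. No substitution had a p below 0.05 with the exact permutation test, before or after adjustment.

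**Figure D1:**
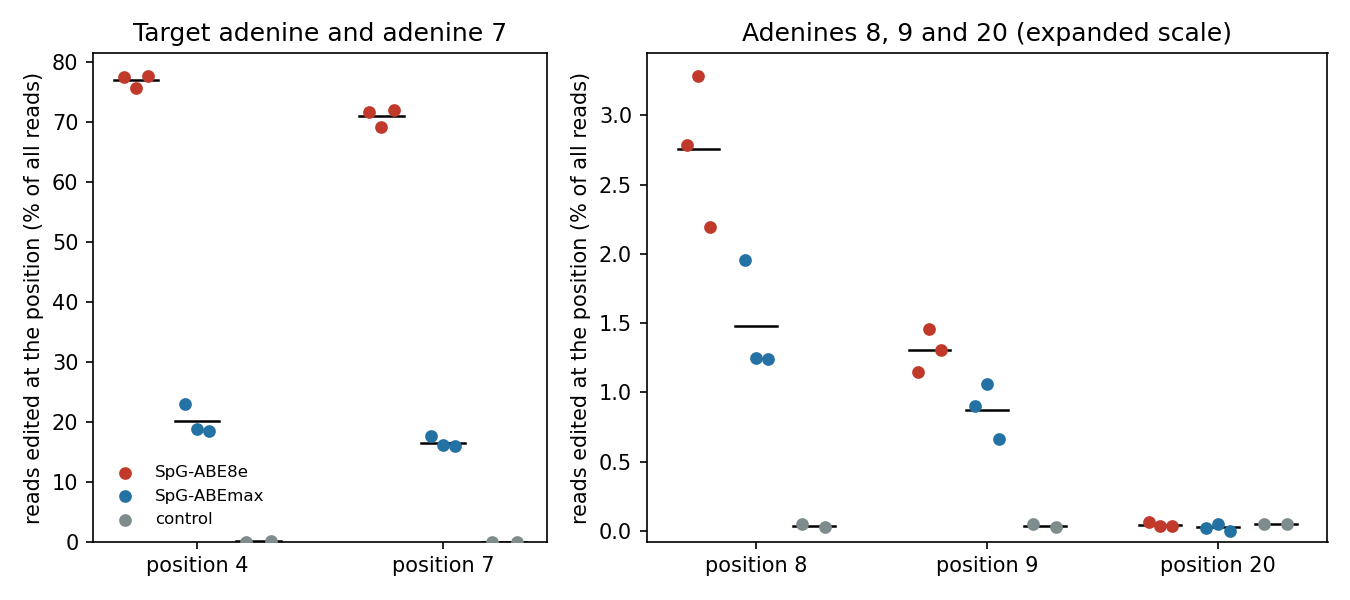
Share of reads edited at each protospacer adenine (y axis, % of all reads; the right panel has an expanded scale) for the SpG-ABE8e, SpG-ABEmax and control samples. Points are samples and short lines are group means: positions 4 and 7 sit at 69.1% to 77.5% with ABE8e and at 15.9% to 22.9% with ABEmax, positions 8 and 9 stay at 3.29% or less, and position 20 is at the control level.

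The deaminases also differed in which adenines were edited on the same read. The share of reads with a pair of edits depends as well on how often each adenine was edited. With SpG-ABE8e, the target and position 7 were edited together, without positions 8, 9 or 20, in 66.7%, 63.3% and 67.5% of reads. With SpG-ABEmax the same pair was found in 3.27%, 2.17% and 2.46% of reads, and the controls had none. With ABEmax the edits were instead carried mostly by separate reads.

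Target editing as the only adenine edit was found in 19.2%, 16.5% and 15.7% of reads with SpG-ABEmax, and position 7 alone in 13.7%, 13.6% and 13.1%. The corresponding shares with SpG-ABE8e were 7.12%, 7.85% and 6.90% for position 4 alone, and 1.38%, 1.39% and 1.30% for position 7 alone. Thus both single-edit alleles were more frequent with the deaminase that edited less, and neither group overlapped with the other (exact permutation p = 0.1 for both).

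Counted over all alleles, 90.6%, 89.3% and 90.8% of target-edited reads also carried A7G with SpG-ABE8e. With SpG-ABEmax, 14.7%, 11.7% and 13.3% did, so the means of 90.2% ± 0.826 and 13.2% ± 1.51 (SD, n = 3 each) lay 77.0 percentage points apart (exact permutation p = 0.1, adjusted p = 0.133). Read the other way, 97.8% to 97.9% of A7G reads carried the target edit with SpG-ABE8e and 13.6% to 19.1% with SpG-ABEmax.

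**Figure D2:**
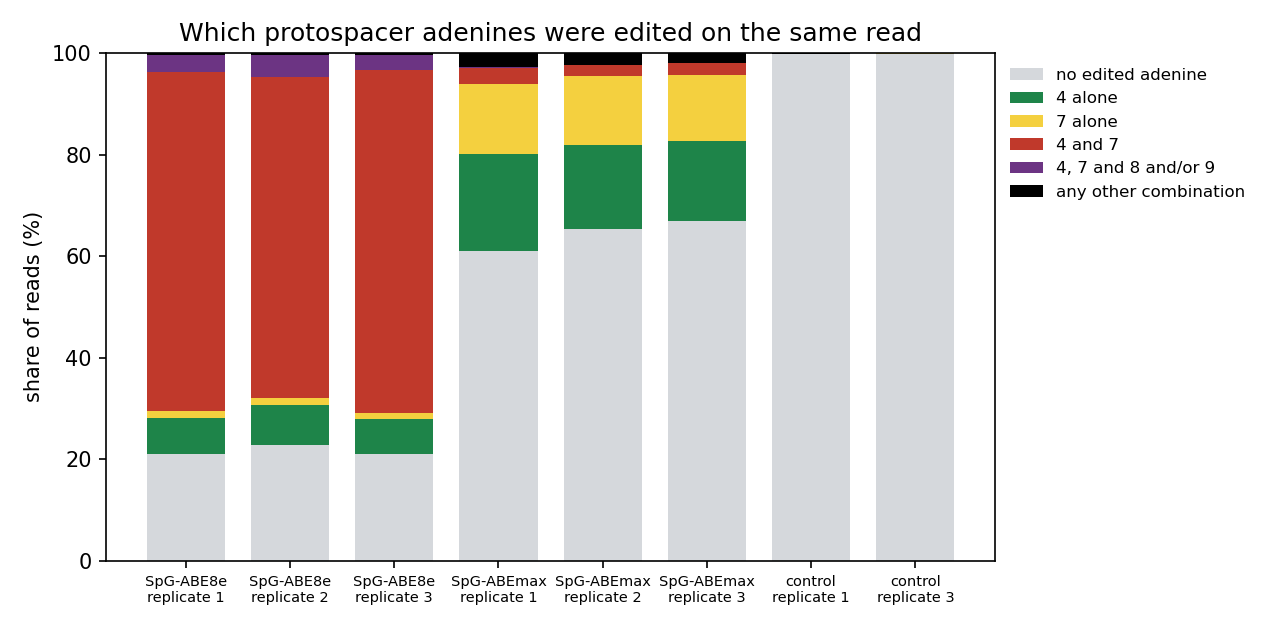
Share of reads (y axis, %) with each combination of edited protospacer adenines, one bar per sample. In the SpG-ABE8e bars the block for positions 4 and 7 together takes 63.3% to 67.5% of reads, while in the SpG-ABEmax bars positions 4 alone and 7 alone are separate blocks of 15.7% to 19.2% and 13.1% to 13.7%.

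Joint editing was then set against what independent placement of the same edits would give. With SpG-ABE8e, A4G and A7G shared 2137, 1850 and 2051 reads, where independence would give 1689, 1431 and 1624, and the odds ratios were 135, 127 and 140. With SpG-ABEmax they shared 146, 83 and 111 reads, where independence would give 175, 115 and 133, and the odds ratios were 0.762, 0.637 and 0.773. Edits at the 2 positions were thus found together more often than independence with one deaminase, and less often with the other, in all samples. Independence was taken over all reads of a sample, edited or not. The labels name no sorting, and a mixture of edited and unedited cells can by itself raise such odds ratios. The part of this mixture in the SpG-ABE8e values was not tested, for this pair or for the other pairs below.

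Within each SpG-ABEmax sample the shortfall gave p = 0.00679, 0.000232 and 0.0211 by Fisher's exact test, with reads as the unit, so these cover counting error within a library. On the log2 scale the odds ratios averaged 7.05 ± 0.0722 with SpG-ABE8e and -0.47 ± 0.154 with SpG-ABEmax (SD, n = 3 each, exact permutation p = 0.1). The other pairs among positions 4, 7, 8 and 9 followed the same order. With SpG-ABE8e all 6 pairs had a positive log2 odds ratio in every sample, with means from 1.61 to 7.05. With SpG-ABEmax the means ran from -1.62 to 0.50, and target with position 9 was the other pair below 0 in all 3 samples, on only 2, 2 and 3 shared reads. Positions 8 and 9 shared no read in any SpG-ABEmax sample, so for that pair the SpG-ABEmax values come from the 0.5 added to each count and give no order. For each of the 6 pairs the difference between deaminases had an exact permutation p of 0.1, also after adjustment over the 6.

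**Figure D3:**
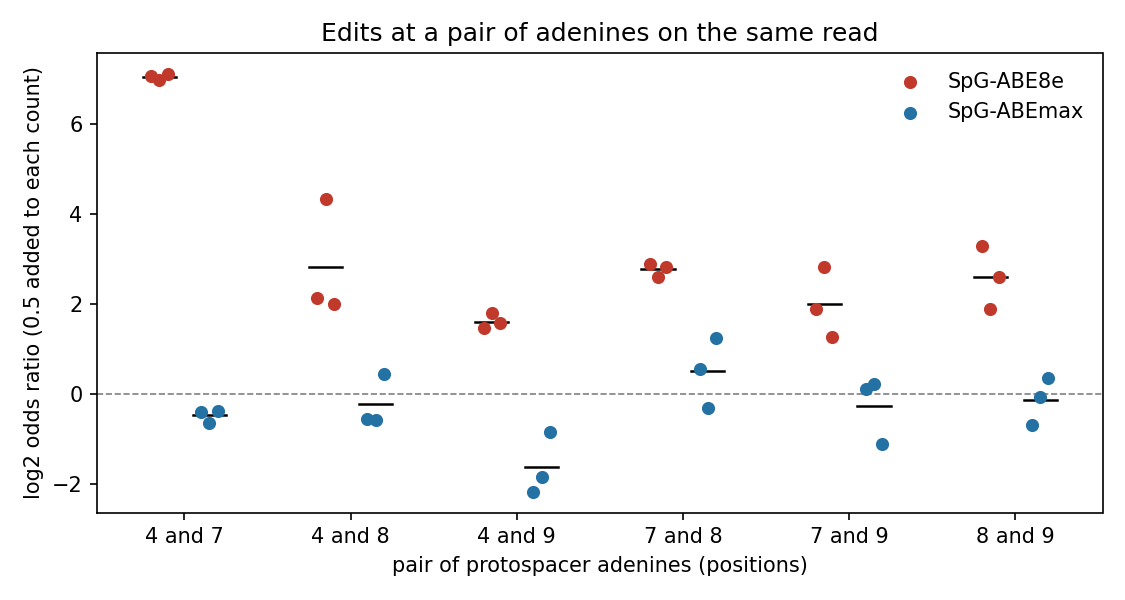
Log2 odds ratio for finding edits at a pair of protospacer adenines on the same read (y axis; 0.5 was added to each count), by pair of positions. Points are samples and short lines means: for positions 4 and 7 the SpG-ABE8e samples lie at 6.97 to 7.11 and the SpG-ABEmax samples below the dashed line of independence.

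The number of edits per edited read followed from these patterns. Any protospacer adenine was edited in 79.0%, 77.2% and 79.1% of reads with SpG-ABE8e and in 39.1%, 34.6% and 33.1% with SpG-ABEmax. Reads with an edit carried 1.94 ± 0.00171 edited adenines with SpG-ABE8e and 1.1 ± 0.0155 with SpG-ABEmax (SD, n = 3 each, exact permutation p = 0.1, adjusted p = 0.133). Reads with more than 2 edits were mostly those of SpG-ABE8e. Exactly 3 were found in 3.28%, 4.09% and 2.78% of its reads against 0.0921%, 0.0265% and 0 with SpG-ABEmax, and exactly 4 in 0.164%, 0.146% and 0.137% of its reads against none, where a count of 0 allows up to 0.0665% to 0.0795%.

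Of the 31 possible combinations of the 5 adenines, 17 were seen in some SpG-ABE8e sample and 13 in some SpG-ABEmax sample. In all, 11 averaged at least 0.1% of reads in either group. This filter lets in combinations that are high in a single group, which favours non-overlap. Of these 11, 9 did not overlap between deaminases, 4 higher with ABE8e and 5 lower, and no rarer combination was apart. The 4 higher ones were positions 4 and 7, positions 4, 7 and 8 (2.40%, 2.92% and 1.85% of reads against at most 0.0691%), positions 4, 7 and 9 (0.820%, 1.13% and 0.927% against at most 0.0230%) and all of 4, 7, 8 and 9. The 5 lower ones were the single edits at 4, 7, 8 and 9 and the pair 7 and 8. Position 8 alone averaged 0.0346% of reads with SpG-ABE8e and 0.925% with SpG-ABEmax, and position 9 alone 0.0114% and 0.697%. So although A8G and A9G were in total more frequent with ABE8e, they were found there mostly on reads that also carried A4G and A7G, and with ABEmax A9G was found mostly on reads with no other edit. A8G alone made up 1.24%, 0.954% and 0.576% of SpG-ABEmax reads, so in replicate 3 more A8G reads carried another edit than did not.

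Target-only editing, meaning A4G with no other change in the protospacer, was higher with ABEmax. It made up 8.95%, 10.1% and 8.32% of target-edited reads with SpG-ABE8e and 82.2%, 85.7% and 84.0% with SpG-ABEmax. The means were 9.14% ± 0.921 and 83.9% ± 1.73 (SD, n = 3 each), 74.8 percentage points apart, with no overlap (exact permutation p = 0.1, adjusted p = 0.133). The order also held for all reads and not only as a share of edited ones. Target-only alleles were 6.92%, 7.67% and 6.45% of all reads with SpG-ABE8e and 18.8%, 16.1% and 15.5% with SpG-ABEmax, 2.40 times more, although ABEmax edited the target in a smaller share of reads (exact permutation p = 0.1; this comparison was added after seeing the data).

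In terms of the coding sequence most of the added edits were silent. Among reads without inserted or deleted bases, codon 296 was changed from TTT to TTC in 68.3%, 65.0% and 69.2% with SpG-ABE8e and in 17.0%, 15.8% and 15.6% with SpG-ABEmax. A codon for another amino acid (F296S, F296L or F296P) was read in 3.7%, 4.55% and 3.39% with SpG-ABE8e and in 2.87%, 2.30% and 1.92% with SpG-ABEmax, against 0.0977% and 0.0490% in the controls. F296S was the most frequent of these with both deaminases, at 2.57% ± 0.506 and 1.49% ± 0.413 (SD, n = 3 each).

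F296P, which needs both A8G and A9G, was read in 0.231%, 0.147% and 0.138% with SpG-ABE8e and in none of the SpG-ABEmax reads. Among target-edited reads, A8G or A9G was present in 4.54%, 5.89% and 4.03% with SpG-ABE8e and in 1.61%, 1.13% and 1.92% with SpG-ABEmax. A splice site read as GC together with an unchanged phenylalanine was therefore by far the commonest outcome of target editing in both groups, at 73.4% ± 1.77 and 19.9% ± 2.36 of reads without indels (SD, n = 3 each). Among A7G reads alone, the share with A8G or A9G was 5.15% ± 0.994 with SpG-ABE8e and 2.77% ± 0.711 with SpG-ABEmax, again without overlap (exact permutation p = 0.1, adjusted p = 0.133).

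The largest alleles of the whole 40-base window show the same division. The unedited window was 20.1%, 21.6% and 19.7% of reads with SpG-ABE8e, 58.2%, 62.8% and 64.3% with SpG-ABEmax, and 95.3% in both controls. Of the 10 alleles with the highest mean in each group, 5 were shared: the unedited window, A4G, A7G, A4G with A7G, and A4G with A8G. The A4G with A7G allele ranked 1 with SpG-ABE8e at 63.7% ± 2.10 and 4 with SpG-ABEmax at 2.58% ± 0.535. Those among the 10 of SpG-ABE8e only were A4G with A7G joined by A8G, by A9G, by both, by T2G or by T24G. Those of SpG-ABEmax only were A8G, A9G, A7G with A8G, A7G with A9G and A-7C. The 10 largest alleles held 91.1% to 93.3% of reads with SpG-ABE8e and 88.4% to 92.5% with SpG-ABEmax.

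The number of different alleles did not separate the deaminases. Brought to a common depth of 2048 reads, the tables held 102, 119 and 123 alleles with SpG-ABE8e and 143, 113 and 109 with SpG-ABEmax, and the groups overlapped (exact permutation p = 0.7, adjusted p = 0.764). The controls held 86 and 80.7.

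Cytosines of the protospacer, which an adenine deaminase can also touch at a low rate, were not changed more often in total than in the controls. At least 1 of the 7 protospacer cytosines was changed in 0.525%, 0.438% and 0.481% of reads with SpG-ABE8e and in 0.576%, 0.636% and 0.576% with SpG-ABEmax. The groups did not overlap (exact permutation p = 0.1, adjusted p = 0.133). The controls, which are the same 2 samples for both deaminases, were higher at 1.61% and 1.32%, so both SpG groups lay below both controls (exact permutation p = 0.2 each, the smallest that 3 against 2 allows). None of the 21 possible cytosine substitutions averaged more than 0.1 percentage points above the highest control, and the largest averaged 0.112% of reads. The controls' total included C15A at 0.732% and 0.758%, so it does not limit rarer changes. C5G and C6G were read in 0.0222% to 0.0665% of reads in every SpG-ABEmax sample and in no control read. A count of 0 allows up to 0.146% and 0.0734% in the controls, so they cannot be set above the controls. With SpG-ABE8e, C5G was read in 0.0656%, 0.110% and 0 of reads and C6G in 0.0656%, 0 and 0.

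Substitutions outside the 5 adenines were small but not the same in controls and edited samples. All 6 SpG samples lay below both controls for 13 of the 116 substitutions (11.2%), among them 4 T-to-G and 5 C-to-A changes. T13G was read in 1.17% and 1.1% of control reads and in 0.133% to 0.346% of SpG reads, C15A in 0.732% and 0.758% against 0 to 0.0530%, and T16G in 0.732% and 1.05% against 0 to 0.146%. All 3 SpG-ABE8e samples lay above both controls for 16 substitutions (13.8%) and all 3 SpG-ABEmax samples for 24 (20.7%), or for 12 and 20 without the protospacer A-to-G edits. The part of library preparation and sequencing in these differences was not tested.

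Besides the adenine edits, 9 substitutions averaged more than 0.1 percentage points above the highest control in some SpG group: T-8C, T-8G, A-7C, T2G, A4C, A8C, G23T, T24G and G28T. T-8C lies opposite an adenine of the gene strand and was read in 0.164%, 0.256% and 0.137% of SpG-ABE8e reads, against 0, 0.0795% and 0 with SpG-ABEmax and 0 and 0.0245% in the controls. T2G was read in 0.230%, 0.402% and 0.240% with SpG-ABE8e and in 0.207%, 0.106% and 0.133% with SpG-ABEmax, and in no control read. Neither overlapped between deaminases, as was so for 14 of the 116 substitutions (12.1%), and both rest on a small number of reads per sample.

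A4C, a change of the target adenine to cytosine, was higher with SpG-ABEmax, at 0.346%, 0.265% and 0.20% of reads against 0, 0.0730% and 0.0343%. Fewer reads kept an adenine at position 4 with ABE8e, which lowers the number that could be read as A4C. Per read with A or C at position 4 the shares were 0.451%, 0.329% and 0.246% with SpG-ABEmax and 0, 0.302% and 0.156% with SpG-ABE8e, where the groups overlapped, and 0 and 0.0491% in the controls. A-7C was read in 0.206% to 0.394% of SpG-ABE8e reads and 0.345% to 0.421% of SpG-ABEmax reads, against 0 and 0.0245% in the controls.

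The total of inserted and deleted bases did not separate the deaminases, while their kind did. Indels were found in 0.558%, 0.548% and 0.687% of reads with SpG-ABE8e (17, 15 and 20 reads) and in 0.461%, 0.742% and 0.643% with SpG-ABEmax (20, 28 and 29 reads), against 0 and 0.0978% in the controls. The means of 0.597% ± 0.0774 and 0.615% ± 0.143 (SD, n = 3 each) could not be separated (exact permutation p = 1, adjusted p = 1).

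Insertions were found in 11, 11 and 12 reads with SpG-ABE8e, which is 0.361%, 0.402% and 0.412% of reads. With SpG-ABEmax they were found in 2, 3 and 6 reads, or 0.0461%, 0.0795% and 0.133%, and in neither control. Deletions ran the other way, with 6, 4 and 8 reads (0.197%, 0.146% and 0.275%) against 18, 25 and 23 (0.415%, 0.663% and 0.510%). Insertions were thus 64.7%, 73.3% and 60.0% of indel reads with SpG-ABE8e and 10.0%, 10.7% and 20.7% with SpG-ABEmax, with no overlap (exact permutation p = 0.1; the split by kind was chosen after the indel totals had been seen).

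The excess of deletions with SpG-ABEmax was made of long ones. Deletions of 20 bases or more were found in 13, 20 and 19 reads with SpG-ABEmax and in 1, 0 and 1 with SpG-ABE8e, while shorter ones were found in 5, 5 and 4 reads against 5, 4 and 7. As a share of reads the long deletions averaged 0.417% ± 0.115 with SpG-ABEmax and 0.0224% ± 0.0194 with SpG-ABE8e (SD, n = 3 each, exact permutation p = 0.1), and the controls had 0 and 1 read. The median deletion was 41 bases with SpG-ABEmax (longest 72) and 3.5 bases with SpG-ABE8e (longest 23), and 14 of the 66 deletion reads of SpG-ABEmax lacked the whole 40-base window. No deletion allele exceeded 4 reads in a sample.

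**Figure D4:**
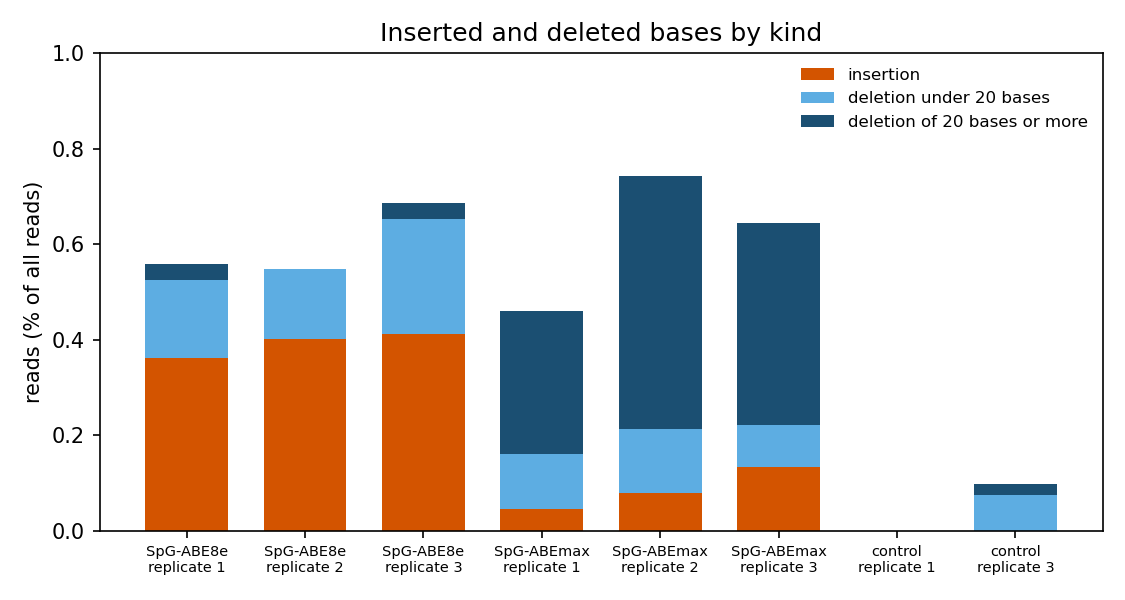
Share of reads (y axis, % of all reads) with an insertion, a deletion under 20 bases or a deletion of 20 bases or more, stacked for each sample. The SpG-ABE8e and SpG-ABEmax bars reach similar heights, but insertions fill most of the former (0.361% to 0.412% of reads) and long deletions most of the latter (0.30% to 0.530%).

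The longer insertions were mostly a second copy of the sequence beside them. Of the 21 SpG-ABE8e reads with 5 or more inserted bases shown in full, 18 equalled a tandem copy of a stretch of the window when each reference adenine was allowed to read as A or G, as did 5 of 7 with SpG-ABEmax. At least 1 such G was present in 13 of the 18 and in 3 of the 5, with a wide spread between samples: 7 of 7, 5 of 6 and 1 of 5 in the SpG-ABE8e samples and 2 of 2, 0 of 2 and 1 of 1 in the SpG-ABEmax samples. The following alleles, written from position 1 to position 20 with the inserted bases in capitals, show for each deaminase a copy with and a copy without A7G:
SpG-ABE8e, 13 bases inserted: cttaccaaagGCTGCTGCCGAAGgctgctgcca
SpG-ABEmax, 13 bases inserted: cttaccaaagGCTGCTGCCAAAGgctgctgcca
SpG-ABE8e, 8 bases inserted: cttaccaaagGCCCAAAGgctgctgcca
SpG-ABEmax, 12 bases inserted: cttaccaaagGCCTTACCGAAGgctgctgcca
The stretch present a second time is positions 5 to 17 in the 13-base insertions, 5 to 12 in the 8-base insertion and 1 to 12 in the 12-base insertion. The longest insertions were 44 bases with SpG-ABE8e and 14 with SpG-ABEmax, and of the 29 distinct insertion alleles of SpG-ABE8e 1 was found in more than 1 sample.

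The same guide with SpCas in place of SpG gave the same order of the deaminases for target editing and target-only share. With SpCas-ABE8e, A4G was found in 76.7%, 89.8% and 88.6% of reads, and with SpCas-ABEmax in 35.2%, 34.4% and 35.8%. Target-only alleles were 4.35%, 3.89% and 3.79% of target-edited reads against 72.9%, 70.6% and 73.9%. Insertions were 53.5%, 42% and 67.1% of indel reads with SpCas-ABE8e and 25.3%, 28.6% and 24.3% with SpCas-ABEmax. As a share of all reads, however, insertions overlapped there, at 0.373%, 0.346% and 0.548% against 0.308%, 0.361% and 0.336%. Deletions of 20 bases or more did not overlap, at 0.0596% to 0.0823% of reads with SpCas-ABE8e and 0.633% to 0.797% with SpCas-ABEmax, the same order as with SpG. All indels, which overlapped with SpG, did not with SpCas, at 0.697%, 0.822% and 0.817% against 1.22%, 1.26% and 1.38%.

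Odds ratios for A4G with A7G were likewise above 1 in all SpCas-ABE8e samples (186 to 348) and below 1 in all SpCas-ABEmax samples (0.640 to 0.705). These too were taken over all reads, and the part of mixed edited and unedited cells was not tested. The gain of ABE8e over ABEmax at the target was 56.8 percentage points with SpG and 49.9 with SpCas. Exchanging the deaminase labels gave an exact permutation p of 0.64 for the difference of these gains (adjusted p = 0.72 over 9 gains). Because A4G did not overlap between deaminases with either Cas9 variant, this exchange could not give a p below 0.05. SpCas-ABE8e replicate 1 stood apart, with 18227 reads and the lowest A4G share of its group, and without it the difference of gains was 2.70 in place of 6.86 points. None of the other 6 gains set against SpCas had an adjusted p below 0.585 by the same exact permutation. That test exchanges labels across a large main difference, so its p does not show that the gains were alike.

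SpG and SpCas did differ in level with the same deaminase. With ABEmax, SpG edited the target in 20.1% ± 2.44 of reads and SpCas in 35.1% ± 0.711 (SD, n = 3 each), and the share of target-edited reads that were target-only was 83.9% ± 1.73 with SpG against 72.4% ± 1.69 with SpCas. With ABE8e the target levels overlapped, at 76.9% ± 1.03 and 85.1% ± 7.23, and the target-only shares were 9.14% ± 0.921 and 4.01% ± 0.303. Except for the overlapping pair, each of these had an exact permutation p of 0.1 and an adjusted p of 0.125 over 30 values; the overlapping pair had an exact permutation p of 0.3.

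The gain from ABE8e at exon 7 was set beside that at 2 other donors edited with the same SpG editors, where the target adenine is also at position 4. The exon 3 donor was targeted at chr10:79694644-79694663 and the exon 8 donor at chr10:79696014-79696033. They are shown with the target in capitals, since neither has an adenine at positions 7 to 9:
exon 3 donor: cttAcctgctgaggcagagc
exon 8 donor: aatAcctgcggcctgaggga
A4G averaged 92.9% ± 1.02 with SpG-ABE8e and 71.8% ± 1.30 with SpG-ABEmax at the exon 3 donor, and 67.6% ± 1.29 and 47.0% ± 4.71 at the exon 8 donor (SD, n = 3 each). The gain from ABE8e was 56.8 percentage points at exon 7, 21.1 at exon 3 and 20.6 at exon 8.

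The smallest difference between any SpG-ABE8e and any SpG-ABEmax sample at exon 7 was 52.8 points, against a largest one of 23 at exon 3 and 26.7 at exon 8. SpG-ABEmax edited the exon 3 donor in 71.0% to 73.3% of reads, so a gain as large as that at exon 7 was not possible there. It edited the exon 8 donor in 42.4% to 51.8% of reads, where SpG-ABE8e reached 66.8% to 69.1%. The part of these starting levels in the gains was not tested. Exchanging deaminase labels within each donor gave an exact permutation p of 0.145 for both differences of gains (adjusted p = 0.585). Because the deaminase groups did not overlap at any of these donors, this exchange could not give a p below 0.05. It therefore decides nothing about the gains. From ABEmax to ABE8e the target-only share dropped by 74.8 points at exon 7. At exon 3 it dropped by 1.48 points, from 98.7% to 97.3%, and at exon 8 it dropped by 7.18 points, from 96.4% to 89.2%. Neither the exon 3 nor the exon 8 protospacer has an adenine at positions 7 to 9. The PAM was TGC at exon 3 and TGG at exons 7 and 8. The differences of target-only share between donors were not tested.

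**Figure D5:**
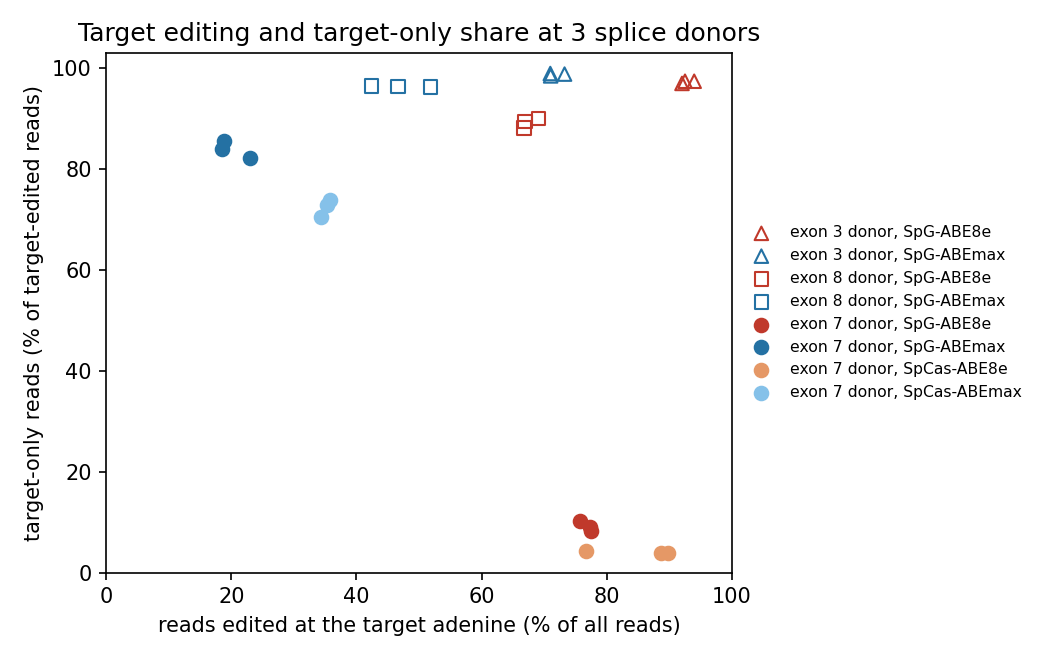
Target-only share (y axis, % of target-edited reads) against target editing (x axis, % of all reads), one point per sample, for the exon 7 donor with SpG or SpCas and for the exon 3 and exon 8 donors with SpG. The SpG-ABE8e and SpCas-ABE8e samples of the exon 7 donor lie at the bottom, at 3.79% to 10.1%, and all other samples lie between 70.6% and 98.9%.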

How the data were processed

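Per the labels and the study's methods, the authors amplified the site, sequenced it and made the deposited allele tables with CRISPResso2, whose version is not given in the sources used here. Each deposited row holds an aligned 40-base window, its read count, its percent of the sample's reads and the authors' numbers of deleted, inserted and substituted bases. The deposited percent equalled the count over the sample total in every row. Every row was parsed here into substitutions on the sgRNA strand and gaps, with Python 3.11.15, numpy 2.4.6 and scipy 1.17.1. The window was placed on GRCm39 by exact match, and GENCODE M39 gave the annotation. Protospacers were matched to the study's oligo list, where the guide labelled sgRNA3 in the samples appears as sgRNA-02. Shares were compared over samples by exact permutation, adjusted by the Benjamini-Hochberg method. Comparisons of insertions, deletions, codons, target-only share of all reads, and SpG with SpCas were added after seeing the data. Named items were every protospacer adenine, substitutions more than 0.1 percentage points above or 0.5 below controls, combinations of at least 0.1% of reads, and the 10 largest alleles per group. Members and lists were chosen with earlier results of these data known. Replicates 1 and 2, and 1 and 3, of SpG-ABE8e, replicates 2 and 3 of SpG-ABEmax and the controls agreed within sampling noise over their larger alleles, but SpG-ABE8e 2 and 3 (chi-square p = 0.00862) and SpG-ABEmax 1 with 2 (p = 4.34e-05) and with 3 (p = 2.43e-07) did not, and all were kept as separate samples. Scripts were tested on simulated data.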

Additional observations from a re-analysis of the deposited data

How the results depend on the processing

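Over 31 planned results, 308 of 320 alternative values kept their direction (or stayed within 1.5 times, for a count), and 25 results did so under all of theirs. Some of these alternatives could not change a value. Subtracting the control mean cancels in a difference between deaminases, and the replicate block leaves the mean difference of 3 against 3 samples as it was. For tests of 3 against 3 or 3 against 2 samples the side of the threshold says nothing, since none could pass it. The differences in A4G, A7G, A8G, A9G, A7G among target-edited reads and target-only share between the SpG deaminases were among those 25. Indels differed between deaminases by -0.0179 percentage points and, leaving out 1 sample, by -0.0952 to 0.0455, so no direction can be given. The number of alleles differed by -6.58, and by -12.8 to 3.98 leaving out 1 sample. Without SpCas-ABE8e replicate 1, the difference of A7G gains between SpG and SpCas turned from 0.53 to -3.46 points, and over all samples left out it lay between -3.46 and 2.80. On the log odds scale (log2), the difference of gains in target-only share was 0.27 in place of -6.37 points, and that in A7G among target-edited reads was -0.17 in place of 4.79 points. Non-overlapping substitutions numbered 14, 5 when alleles of 1 read were left out, and 19 to 25 with 1 sample left out, since fewer samples overlap less. No indel and no A20G remained among alleles of at least 0.2% of reads. The deviations of same-numbered samples correlated at 0.71, 0.67 and -0.65 and those of other pairs at -0.71 to 0.72, so the numbers were not taken to pair the samples. With the replicate block the A4G difference was 56.8 points, which pairing 3 with 3 samples cannot change (exact sign-flip permutation p = 0.25, the smallest 3 pairs allow). With SpG-ABE8e replicates 1 and 3 counted as 1, a setting chosen after seeing the data, it was 56.5 points. The long-deletion, insertion and target-only comparisons, also added after seeing the data, kept their direction throughout.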
